A study of Homo sapiens with 4 samples.

Results

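The genes of DNA replication and of the G1 to S transition were examined in Jurkat, an established line of human T-ALL (acute lymphoblastic leukemia of T cells), after knockdown of SOX4. The set comprised 48 genes taken by symbol from a table of 64252 Ensembl gene IDs, and each of the 48 symbols matched 1 ID. It was drawn up by function, as E2F factors, cyclins and their kinases, origin licensing factors, helicase subunits, polymerases and accessory factors, with earlier results of these data known. The series holds 4 RNA-seq libraries: Jurkat cells given a scrambled short hairpin RNA (sh-Scb, 2 libraries) and Jurkat cells given a hairpin against SOX4 (sh-SOX4, 2 libraries), with no other treatment named in the labels. SOX4, an HMG-box transcription factor, takes part in early lymphocyte development. All libraries come from a single line, and the labels used here state neither the hairpin sequences nor the time after transfection nor any selection. Whether replicates were grown as separate cultures is likewise unstated, and the p-values therefore reflect the spread among these 4 libraries, possibly technical spread alone.

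Entry into S phase is set by D-type cyclins with CDK4 and CDK6, which phosphorylate the retinoblastoma protein and free activating E2F factors, and by E-type cyclins with CDK2. In G1, the origin recognition complex, CDC6 and CDT1 load the ring of MCM2 to MCM7 onto origins, and in S phase CDC7 with DBF4, together with CDKs, turns this ring into an active helicase with CDC45 and the GINS complex. Polymerase alpha with primase then lays down primers, RFC loads the sliding clamp PCNA, polymerase epsilon and polymerase delta extend the strands, and FEN1 and LIG1 finish the lagging strand. Many of these genes are themselves E2F targets that peak around G1/S, and they are well expressed in dividing cells, leukemic T cells included.

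The libraries summed to between 29093287 and 36636219 counts. SOX4 (ENSG00000124766, chromosome 6, 21592768 to 21598619 on GRCh38) stood at 271 and 277 CPM in sh-Scb and at 191 and 199 CPM in sh-SOX4, where CPM are counts scaled to the library total with TMM factors, as for all levels below. This left 71.1% of the control level, a log2 fold change of -0.49 (SE 0.044, adjusted p 1.24e-05 by edgeR's quasi-likelihood test). The line's identity was checked on 13 T cell and T-ALL markers, which all passed the filter, among them CD3E at 382 CPM, LCK at 411 CPM and TAL1 at 225 CPM in sh-Scb. Their summed level was 1956 to 2007 CPM in sh-Scb and 2410 to 2512 CPM in sh-SOX4. Of the 13, 8 were called higher at an adjusted p under 0.05 and 3 were not called. The other 2, CD247 and CD5, were called lower, with log2 fold changes of -0.34 and -0.22. The share called was 76.9%, against 44.1% of all tested IDs. Summed levels of 7 B cell markers were 69.3 to 71.7 CPM in sh-Scb and 16.8 to 18.4 CPM in sh-SOX4. Most of it was CD79A, at 67.2 and 65.9 CPM in sh-Scb and 13.2 and 13.4 CPM in sh-SOX4. Of these markers 2 were called lower. CD79B, the 1 called higher, went from a mean of 0.421 to 1.51 CPM, and MS4A1 had 0 to 9 counts a library. For 9 myeloid markers the sums were 20.8 to 23.6 CPM in sh-Scb and 43.1 to 43.2 CPM in sh-SOX4, and for 4 NK markers 8.63 to 9.84 CPM across libraries. Among the myeloid markers S100A9 went from a mean of 4.22 to 23.2 CPM and was called higher, while CD68 went from 6.70 to 3.96 CPM and was called lower. LYZ and COL1A2 had 0 counts in each library, where 3 counts correspond to 0.0819 to 0.103 CPM, and EPCAM had 1 count in all. The 7 epithelial and fibroblast markers still summed to 25.04 and 26.9 CPM in sh-Scb and 18.2 to 18.3 CPM in sh-SOX4, most of it COL1A1, with a mean of 25.1 CPM in sh-Scb and 17.3 CPM in sh-SOX4. The part of these marker differences in the results below was not tested.

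In sh-SOX4 the replication genes moved in both directions, mostly by small amounts. All 48 passed the filter on low counts and were tested. At an adjusted p under 0.05, 14 were higher and 16 lower, and 18 were not called. The 30 calls make up 62.5% of the set, against 44.1% of all 19897 gene IDs tested, of which 23.2% were higher and 20.9% lower. The set is well expressed, however. Among the 10540 tested IDs with a mean of at least 10 CPM, a minimum chosen after the values were seen, 62.7% were called, against 30 of the 47 replication genes above that level, or 63.8%. The share called was near that of genes of such abundance. The sizes were below the background: the median log2 fold change was -0.09, against -0.01 over all tested IDs, and its median size was 0.21, against 0.38 over all tested IDs and 0.31 over those with at least 10 CPM. A change of at least 1.5-fold was seen in 7 of the 48 genes, CCNE2, E2F7, E2F8, ORC6 and E2F2 lower and GINS3 and CDK6 higher, against 32.6% of all tested IDs and 21.8% of those with at least 10 CPM. The groups did not overlap for 42 of the 48 genes, against 72.9% of all tested IDs. By role, the share called was 100% of the E2F factors, 83.3% of licensing genes and 62.5% of the cyclin, CDK and CDC25A genes. It was 50% of polymerase and primase genes, 41.7% of helicase genes and 40% of clamp and loader genes. In the roles with 2 genes it was 50% for the firing kinase and 100% for the others. These shares are to be read against the 44.1% and 62.7% above. Whether fewer cells in S phase or less RNA per cell underlies a lower level cannot be told apart in bulk RNA.

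**Figure D1:**
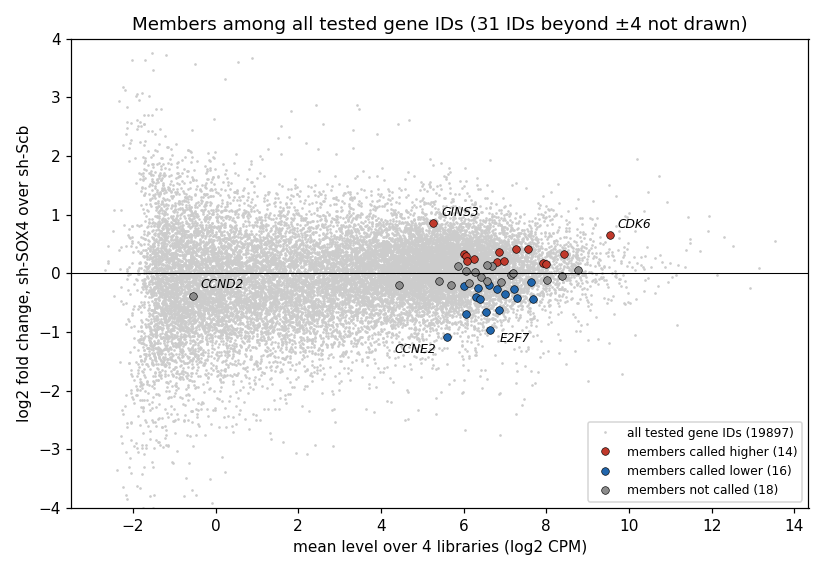
Log2 fold change of sh-SOX4 over sh-Scb (vertical axis) against the mean level in log2 CPM (horizontal axis) for all 19897 tested gene IDs (grey) and the 48 replication genes (coloured by call, 14 higher, 16 lower, 18 not called). The replication genes lie at high abundance and within the spread of the other genes, with CCND2 as the exception at low level; 31 IDs beyond a log2 fold change of 4 in size are not drawn.

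The direction of the summed level of the set depended on the scaling. The median log2 fold change of the 48 genes was negative both with TMM (-0.09) and with library totals (-0.185). CDK6 alone went from a mean of 590.6 CPM in sh-Scb to 927.5 CPM in sh-SOX4 after TMM scaling. After TMM scaling, the 48 genes summed to 6564 and 6546 CPM in sh-Scb and to 6707 and 6708 CPM in sh-SOX4, so the summed level was slightly above control. As a share of raw library totals they went the other way, from 0.677% and 0.678% of counts in sh-Scb to 0.647% and 0.648% in sh-SOX4. With library totals in place of TMM, 9 replication genes were called higher and 26 lower. Over all genes, the share of calls that were higher went from 52.5% to 40.8%, and their median log2 fold change from -0.01 to -0.11. Of the 30 called genes, 14 kept their call and direction in all 16 alternative analyses: CDK6, E2F3, GINS3, MCM5 and UHRF1 were higher, and E2F2, E2F7, E2F8, CCNE2, CDK2, CDT1, ORC6, CDC7 and POLE were lower. The test against a 1.2-fold change by itself kept 14 of the 30 calls, so the size of a change set this list. MCM3, ORC2, CDC6, RFC5, POLA1, FEN1 and LIG1 lost their call in that test only.

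**Figure D2:**
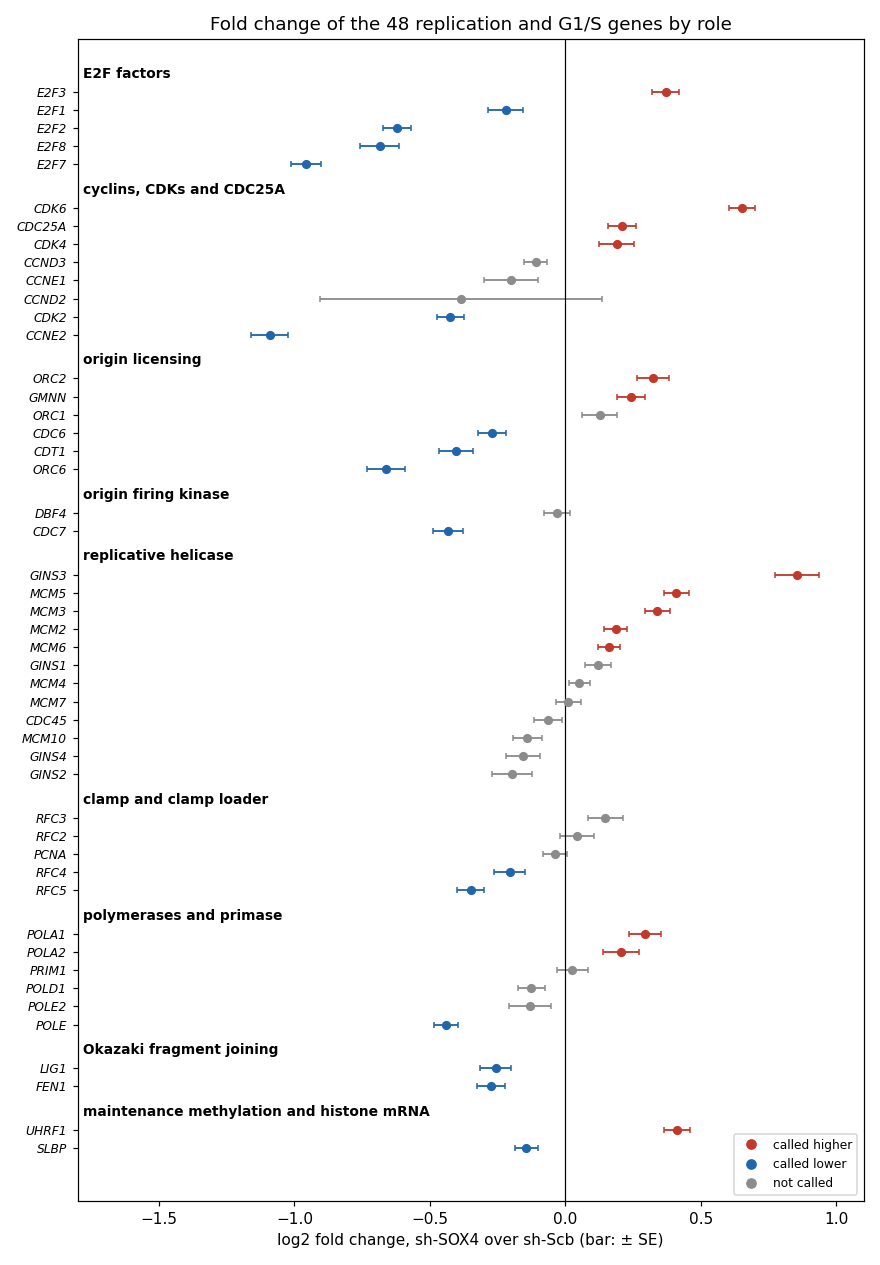
Log2 fold change of sh-SOX4 over sh-Scb for the 48 genes, grouped by role, with bars of ± SE from the edgeR model and colours for the call. The E2F factors other than E2F3 lie to the left of 0, the 5 called helicase subunits lie to the right, both genes of the firing kinase lie to the left, CDC7 at -0.43, and the Okazaki fragment genes do too.

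Promoters are shown for the called genes of largest change that could be shown from the RefSeq table of GRCh38.p14 (E2F7, GINS3, ORC6 and CDK6), because these genes carry the changes described below. Those of E2F2 and MCM6 were added after the matches were seen, as a gene that was lower and a gene that was higher with E2F matches. Each sequence is the 250 bases before a RefSeq start, 5′ to 3′ on the gene's strand. Capitals mark matches on either strand to the E2F letters TTTCCCGC, TTTCGCGC, TTTGCCGC or TTTGGCGC, or to the CCAAT box, which is ATTGG on the other strand.
E2F7, chr12:77065570-77065819, minus strand: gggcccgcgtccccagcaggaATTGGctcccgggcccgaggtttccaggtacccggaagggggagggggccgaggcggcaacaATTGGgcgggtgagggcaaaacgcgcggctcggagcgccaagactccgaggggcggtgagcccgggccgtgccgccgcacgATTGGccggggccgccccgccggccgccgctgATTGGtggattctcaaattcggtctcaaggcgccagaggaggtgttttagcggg
ORC6, chr16:46689409-46689658, plus strand: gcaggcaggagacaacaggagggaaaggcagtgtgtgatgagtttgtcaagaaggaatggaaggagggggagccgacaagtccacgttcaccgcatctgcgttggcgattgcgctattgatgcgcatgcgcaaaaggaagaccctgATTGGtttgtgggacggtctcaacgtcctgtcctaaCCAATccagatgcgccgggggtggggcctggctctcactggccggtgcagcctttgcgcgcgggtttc
E2F2, chr1:23531234-23531483, minus strand: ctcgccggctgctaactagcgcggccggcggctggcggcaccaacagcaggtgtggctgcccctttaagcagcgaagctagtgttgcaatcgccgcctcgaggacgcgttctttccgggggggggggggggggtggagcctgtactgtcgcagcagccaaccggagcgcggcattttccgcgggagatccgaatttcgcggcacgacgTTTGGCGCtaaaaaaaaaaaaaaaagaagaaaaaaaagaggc
MCM6, chr2:135876444-135876693, minus strand: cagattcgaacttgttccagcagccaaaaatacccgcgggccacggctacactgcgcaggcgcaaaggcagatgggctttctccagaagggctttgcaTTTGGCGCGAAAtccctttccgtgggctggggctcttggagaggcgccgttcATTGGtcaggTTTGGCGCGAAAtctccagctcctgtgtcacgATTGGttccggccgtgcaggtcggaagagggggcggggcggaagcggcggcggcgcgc
GINS3, chr16:58392221-58392470, plus strand: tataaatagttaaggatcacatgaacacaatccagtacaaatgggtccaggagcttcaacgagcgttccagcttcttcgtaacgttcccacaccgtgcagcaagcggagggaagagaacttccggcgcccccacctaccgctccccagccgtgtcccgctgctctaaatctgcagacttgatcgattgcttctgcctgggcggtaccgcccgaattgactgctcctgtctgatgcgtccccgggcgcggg
CDK6, chr7:92836574-92836823, minus strand, the first of its 2 windows: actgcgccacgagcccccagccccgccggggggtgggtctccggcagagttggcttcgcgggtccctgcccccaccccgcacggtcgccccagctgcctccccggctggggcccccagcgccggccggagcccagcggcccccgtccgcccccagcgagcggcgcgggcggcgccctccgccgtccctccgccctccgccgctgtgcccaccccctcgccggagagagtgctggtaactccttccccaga

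The E2F7 window holds 4 CCAAT matches and that of ORC6 holds 2, with no E2F match in either. The E2F2 window holds 1 E2F match, 42 bases before the start, and that of MCM6 holds 2 overlapping E2F matches at each of 2 places, 152 and 90 bases before the start, with 2 CCAAT matches between and after them. GINS3 and CDK6 held neither set of letters. Of the 48 genes, 41 had windows in the table. An E2F match stood in 19 of their 55 windows (34.5%), against 2.79% of all 35116 windows and 3.48% of the 22198 windows of protein-coding genes. CCAAT matches stood in 29 of the 55 windows (52.7%), against 32% of all windows. Letters of the SOX core, AACAAAG or AACAATG on either strand, stood in 3 of the 55 windows (5.45%). This was near the 5.64% of windows of protein-coding genes, against 7.1% of all windows. The genes with them, MCM10, MCM7 and RFC3, were not called. By call, an E2F match stood in a window of 8 of 13 genes called higher, 6 of 13 called lower and 4 of 15 not called. E2F letters were therefore found among genes that rose and among genes that fell. A match is a description of letters, and E2F binding was not measured here.

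Among the 5 E2F factors, 4 were lower in sh-SOX4 and 1 was higher, with a median log2 fold change of -0.62. E2F7 and E2F8, the atypical E2Fs that repress E2F targets, were both lower. E2F7 stood at 135 and 145 CPM in the sh-Scb libraries and at 73.8 and 70.1 CPM in the sh-SOX4 libraries. Its level after SOX4 knockdown was 51.5% of control, the lowest of the 5, with a log2 fold change of -0.96 (SE 0.056, adjusted p 7.93e-07). E2F8 stood at 87.2 and 82.3 CPM in sh-Scb and at 56.3 and 49.2 CPM in sh-SOX4, with the groups apart and a log2 fold change of -0.68 (SE 0.072, adjusted p 4.17e-05).

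The activating factors split. E2F2 was at 141 and 145 CPM in the control libraries and at 89.5 and 95.8 CPM after knockdown, a log2 fold change of -0.62 (SE 0.053, adjusted p 8.61e-06). E2F3 moved the other way, from 101 and 102 CPM to 134 and 128 CPM, with a log2 fold change of 0.37 (SE 0.049, adjusted p 1.76e-04). E2F1 was at 65.5 and 72.5 CPM in sh-Scb and at 59.3 and 59.1 CPM in sh-SOX4. The gap between the groups was here about the size of the spread within sh-Scb (log2 fold change -0.22, adjusted p 0.0203). The log2 fold change was -0.15 without sh-Scb replicate 2 and -0.29 without sh-Scb replicate 1. It stayed at -0.22 without either sh-SOX4 library. The call did not hold without sh-Scb replicate 2 or without either sh-SOX4 library, fits that leave 1 library in a group. Within each library, counts of E2F2 exceeded those of E2F1 by 1.1 and 1.00 on the log2 scale in sh-Scb and by 0.60 and 0.70 in sh-SOX4. E2F2 has more exonic bases, however, 5457 against 2503. In CPM per kb of exons, E2F2 was below E2F1 in both groups, at 26.1 against 27.6 in sh-Scb and 17.0 against 23.6 in sh-SOX4.

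**Figure D3:**
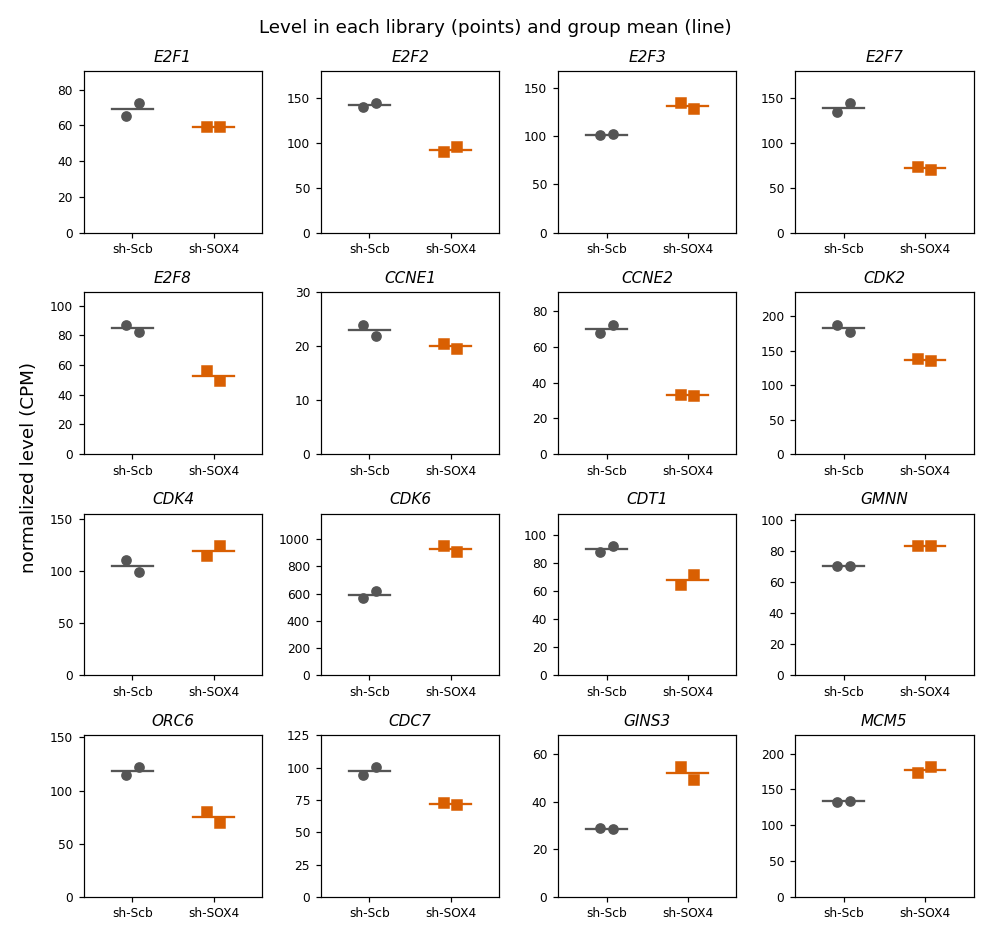
Normalized level in CPM (vertical axis, from 0) of 16 genes in each library, with sh-Scb as circles, sh-SOX4 as squares and a line at each group mean. E2F7 and CCNE2 lie far below the control level in both sh-SOX4 libraries, at 51.5% and 46.9% of it on average, and CDK6 and GINS3 sit above it in both. In E2F1, CCNE1 and CDK4 the sh-Scb libraries lie further from each other than from the nearest sh-SOX4 library.

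Of the 8 cyclin, CDK and CDC25A genes, 3 were higher and 2 lower. The kinase genes of the cyclin D step were higher. CDK6 was the most abundant of the 48 in CPM, at 565 and 616 CPM in sh-Scb and 949 and 906 CPM in sh-SOX4. Both knockdown libraries lay well above the controls, at 1.57-fold, with a log2 fold change of 0.65 (SE 0.049, adjusted p 4.07e-06). CDK4, the other cyclin D kinase, was at 111 and 99.2 CPM in sh-Scb and at 115 and 125 CPM in sh-SOX4, a log2 fold change of 0.19 (SE 0.065, adjusted p 0.0402). The highest control library and the lowest knockdown library of CDK4 were close together, and its adjusted p was 0.202 without sh-Scb replicate 2 and 0.245 without sh-SOX4 replicate 2. CDK4 also shares 43.2% of its exonic bases, counted on either strand, with TSPAN31, whose log2 fold change was 0.39 (adjusted p 0.0248). The strand setting was not given, so reads of the 2 genes may not have been told apart there.

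The cyclin D genes themselves were not called. CCND3 was at 269 and 266 CPM in sh-Scb and 242 and 254 CPM in sh-SOX4, with a log2 fold change of -0.11 (adjusted p 0.0665). CCND2 was scarce, at 0.503 and 0.996 CPM in sh-Scb and 0.725 and 0.403 CPM in sh-SOX4, and overlapped between the groups. CCND1, which was not among the 48, was scarce too, with 10 to 22 counts a library, and CCND3 was the abundant D-type cyclin of these libraries.

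Of the E-type cyclins, CCNE2 was called lower and CCNE1 was not called. CCNE2 had the largest change of the 48 genes. It was at 67.9 and 72.5 CPM in sh-Scb and at 33.2 and 32.7 CPM in sh-SOX4, which left 46.9% of control, with a log2 fold change of -1.09 (SE 0.068, adjusted p 1.11e-06). CCNE2 (chromosome 8) shares 37.1% of its exonic bases with other genes, mainly INTS8, which moved the other way with a log2 fold change of 0.19 (adjusted p 0.0125). CCNE1 was at 24.0 and 22.0 CPM in sh-Scb and at 20.4 and 19.6 CPM in sh-SOX4, and its log2 fold change of -0.20 did not pass (adjusted p 0.132). CCNE2 also has more exonic bases than CCNE1, 4397 against 2550, and levels per length are given below. The log2 ratio of CCNE2 to CCNE1 within a library was 1.5 and 1.72 in the control libraries and 0.70 and 0.74 after knockdown, so CCNE2 had more counts than CCNE1 in all 4 libraries, by a smaller margin after knockdown. With 2 libraries a group, the smallest 2-sided p of an exact permutation test of such a ratio is 1 in 3, and the ratios are given as a description.

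CDK2, the partner of cyclin E, was at 188 and 177 CPM in sh-Scb and at 138 and 135 CPM in sh-SOX4, a log2 fold change of -0.42 (SE 0.049, adjusted p 7.16e-05). CDC25A, the phosphatase that activates CDK2, was at 122 and 114 CPM in sh-Scb and at 135 and 136 CPM in sh-SOX4, a log2 fold change of 0.21 (SE 0.051, adjusted p 0.00776). Its increase was relative to TMM scaling, since with library totals its adjusted p was 0.107. CDK2 and CCNE2 were thus lower where CDK4, CDK6 and CDC25A were higher.

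**Figure D4:**
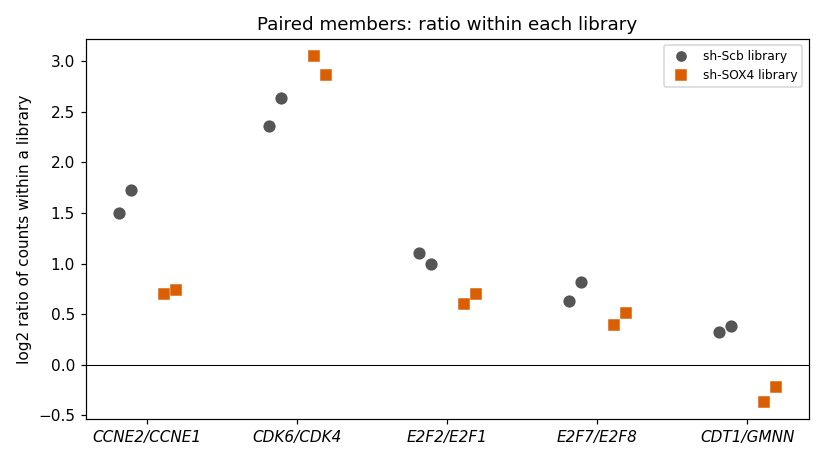
Log2 ratio of counts of 2 genes within each library (vertical axis), with sh-Scb as circles and sh-SOX4 as squares. In each of the 5 ratios drawn the sh-SOX4 libraries lie apart from the sh-Scb libraries, and CDT1 over GMNN goes from above 0 to below 0. The ratios are not adjusted for gene length, so 0 does not mark equal levels. A further ratio, CCND2 over CCND3, overlaps between the groups and is not drawn.

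Of the 6 origin licensing genes, 3 were lower and 2 higher. ORC6, the smallest subunit of the origin recognition complex, was at 115 and 122 CPM in sh-Scb and at 80.0 and 69.4 CPM in sh-SOX4. This was 63.2% of control, a log2 fold change of -0.66 (SE 0.071, adjusted p 5.95e-05). ORC2 went from 58.1 and 56.4 CPM to 72.8 and 70.5 CPM, a log2 fold change of 0.32 (SE 0.058, adjusted p 0.00126). ORC1, at 53.8 and 58.1 CPM in sh-Scb and 61.1 and 60.9 CPM in sh-SOX4, was not called (log2 fold change 0.13, adjusted p 0.141). Subunits of the same complex therefore moved in different directions.

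The MCM loaders fell. CDT1, which brings the MCM ring to origins, was at 88.0 and 92.4 CPM in sh-Scb and at 64.6 and 71.7 CPM in sh-SOX4, a log2 fold change of -0.40 (SE 0.064, adjusted p 5.38e-04). CDC6, the ATPase that acts with it, was at 125 and 119 CPM in sh-Scb and at 98.4 and 104 CPM in sh-SOX4, a log2 fold change of -0.27 (SE 0.053, adjusted p 0.00205). Geminin, GMNN, the inhibitor of CDT1, was higher, at 70.3 and 70.7 CPM in sh-Scb and 83.5 and 83.2 CPM in sh-SOX4, with a log2 fold change of 0.24 (SE 0.052, adjusted p 0.00371). With a correction for GC content and length the adjusted p of GMNN was 0.121. The log2 ratio of CDT1 to GMNN counts was 0.32 and 0.39 with the scrambled hairpin and -0.37 and -0.22 with the SOX4 hairpin. CDT1 has more exonic bases (3336 against 2476), so the sign of this ratio does not rank the 2 genes. In CPM per kb of exons, CDT1 was below GMNN in both groups, at 27.0 against 28.5 in sh-Scb and 20.4 against 33.7 in sh-SOX4.

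Of the kinase that fires licensed origins, the catalytic subunit CDC7 was lower and the activating subunit DBF4 was not called. CDC7 was at 94.4 and 100.3 CPM in sh-Scb and at 72.9 and 71.2 CPM in sh-SOX4, a log2 fold change of -0.43 (SE 0.055, adjusted p 1.31e-04). DBF4 overlapped between the groups, at 142 and 144 CPM in sh-Scb and 143 and 137 CPM in sh-SOX4, with a log2 fold change of -0.03 (adjusted p 0.63).

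Of the 12 genes of the replicative helicase, 5 were higher and none passed as lower after TMM scaling, with a median log2 fold change of 0.09. The share called was 41.7%, against 44.1% of all tested IDs and 62.7% of those with at least 10 CPM. With library totals, 3 of the 12 were higher and 4 lower, and with the correction for GC content and length 4 were higher and 4 lower, and among the alternatives the count of lower calls ran from 0 to 4 and that of higher calls from 2 to 5. In 8 of the 16 alternatives at least 1 helicase gene was called lower, while GINS3 and MCM5 were called higher in each.

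Among the subunits of the MCM ring, MCM5 and MCM3 rose most. MCM5 was at 133 and 134 CPM in sh-Scb and at 173 and 181 CPM in sh-SOX4, a log2 fold change of 0.41 (SE 0.047, adjusted p 6.14e-05). MCM3, which pairs with MCM5 in the ring, was at 318 and 296 CPM in sh-Scb and at 389.7 and 386 CPM in sh-SOX4, a log2 fold change of 0.34 (SE 0.046, adjusted p 2.01e-04). Both knockdown libraries lay above both controls in each of these genes. MCM2 went from 233 and 225 CPM to 257 and 264 CPM (log2 fold change 0.18, adjusted p 0.00594), and MCM6 from 241 and 238 CPM to 267 and 269 CPM (log2 fold change 0.16, adjusted p 0.01). These smaller changes were lost without sh-SOX4 replicate 2, with adjusted p of 0.0615 for MCM2 and 0.0777 for MCM6, and with library totals, with 0.132 and 0.258.

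MCM4 and MCM7 were not called. MCM4 was at 424 and 433 CPM in sh-Scb and 436 and 452 CPM in sh-SOX4, with a log2 fold change of 0.05 (adjusted p 0.333). MCM7 overlapped between the groups, at 144 and 150.3 CPM in sh-Scb and 147 and 149 CPM in sh-SOX4. Measured about the mean of the 6 subunits, MCM5 gained 0.22 on the log2 scale and MCM3 gained 0.15, while MCM7 fell by 0.18 and MCM4 fell by 0.14, so the ring's mRNAs did not move in step. MCM10, an initiation factor that binds the assembled helicase, was at 128 and 123 CPM in sh-Scb and 118 and 109.9 CPM in sh-SOX4 and missed the threshold (log2 fold change -0.14, adjusted p 0.0571). Its adjusted p was 0.0216 without sh-Scb replicate 2 and 0.0456 without sh-SOX4 replicate 1.

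GINS3 had the largest rise of the 48 genes, in a complex whose other subunits were not called. GINS3 was at 28.7 and 28.6 CPM in sh-Scb and at 54.5 and 49.3 CPM in sh-SOX4, 1.81-fold, with a log2 fold change of 0.86 (SE 0.081, adjusted p 1.83e-05). GINS1 was at 98.0 and 100.2 CPM in sh-Scb and 108 and 107 CPM in sh-SOX4 (log2 fold change 0.12, adjusted p 0.0694). GINS2 was at 58.4 and 52.9 CPM in sh-Scb and 46.8 and 50.4 CPM in sh-SOX4 (log2 fold change -0.20, adjusted p 0.0553), and GINS4 at 72.8 and 74.0 CPM in sh-Scb and 68.8 and 63.0 CPM in sh-SOX4 (log2 fold change -0.16, adjusted p 0.0649). The GINS2 and GINS4 values sit just outside the threshold and passed as lower when a library was left out, GINS2 with an adjusted p of 0.0142 without sh-Scb replicate 2 and 0.0496 without sh-SOX4 replicate 2, and GINS4 with 0.0417 without sh-SOX4 replicate 1. About the mean of the 4 subunits, GINS3 gained 0.70 on the log2 scale, while GINS2 fell by 0.35, GINS4 fell by 0.31 and GINS1 fell by 0.04. CDC45, the helicase cofactor, was at 88.3 and 86.5 CPM in sh-Scb and 82.6 and 84.7 CPM in sh-SOX4 (log2 fold change -0.06, adjusted p 0.359).

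Of the sliding clamp and its loader, 2 of 5 genes were lower and none passed as higher. PCNA, the clamp, was at 348 and 328 CPM in sh-Scb and at 327 and 331 CPM in sh-SOX4, overlapping, with a log2 fold change of -0.04 (adjusted p 0.508). RFC5 was at 147 and 144 CPM in sh-Scb and at 111 and 117 CPM in sh-SOX4, a log2 fold change of -0.35 (SE 0.049, adjusted p 2.44e-04). RFC4 was at 109 and 100.2 CPM in sh-Scb and at 90.9 and 90.6 CPM in sh-SOX4, a log2 fold change of -0.21 (SE 0.056, adjusted p 0.0135), with an adjusted p of 0.108 without sh-Scb replicate 1. RFC2 overlapped, at 66.1 and 64.7 CPM in sh-Scb and 64.5 and 70.2 CPM in sh-SOX4. RFC3 was at 84.8 and 95.5 CPM in sh-Scb and 102 and 97.7 CPM in sh-SOX4 (log2 fold change 0.15, adjusted p 0.0902) and passed as higher without sh-Scb replicate 2, with an adjusted p of 0.00562. About the mean of RFC2 to RFC5, RFC3 gained 0.24 and RFC2 gained 0.13 on the log2 scale, while RFC5 fell by 0.26 and RFC4 fell by 0.11.

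Among the polymerase genes, subunits of polymerase alpha were higher and the catalytic subunit of polymerase epsilon was lower. POLE was at 244 and 236 CPM in sh-Scb and at 179 and 175 CPM in sh-SOX4, 73.7% of control, with a log2 fold change of -0.44 (SE 0.044, adjusted p 2.47e-05). Its accessory subunit POLE2 was at 44.1 and 44.3 CPM in sh-Scb and 38.7 and 42.0 CPM in sh-SOX4 and was not called (adjusted p 0.195). POLA1, the catalytic subunit of polymerase alpha, was at 60.4 and 60.1 CPM in sh-Scb and at 76.2 and 71.6 CPM in sh-SOX4, a log2 fold change of 0.29 (SE 0.059, adjusted p 0.00249). Both POLA1 and POLE showed groups that lay well apart, in opposite directions.

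POLA2, the second subunit of polymerase alpha, was at 64.8 and 62.4 CPM in sh-Scb and at 69.4 and 77.2 CPM in sh-SOX4, a log2 fold change of 0.20 (SE 0.066, adjusted p 0.0296). The call was lost without sh-Scb replicate 2 (adjusted p 0.0873) and without sh-SOX4 replicate 2 (adjusted p 0.26), and 35.1% of its exonic bases are shared with AP000944.2. PRIM1, the primase, overlapped between the groups, at 78.5 and 74.5 CPM in sh-Scb and 80.0 and 75.7 CPM in sh-SOX4. POLD1, the catalytic subunit of polymerase delta, was at 99.3 and 97.9 CPM in sh-Scb and 90.5 and 90.2 CPM in sh-SOX4 (log2 fold change -0.13, adjusted p 0.0636).

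Both genes of Okazaki fragment joining were lower. FEN1, the flap endonuclease, was at 169.9 and 157 CPM in sh-Scb and at 133 and 138 CPM in sh-SOX4, a log2 fold change of -0.27 (SE 0.053, adjusted p 0.00201). LIG1, the ligase that seals the fragments, was at 92.4 and 85.4 CPM in sh-Scb and at 74.2 and 74.8 CPM in sh-SOX4, a log2 fold change of -0.26 (SE 0.057, adjusted p 0.00468). In each gene both knockdown libraries lay below both controls, and both kept their call in each alternative but the test against 1.2-fold.

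UHRF1, which recruits the maintenance DNA methyltransferase to newly copied DNA, was higher, at 161 and 167 CPM in sh-Scb and at 211 and 226 CPM in sh-SOX4, a log2 fold change of 0.41 (SE 0.050, adjusted p 9.18e-05). SLBP, which binds the stem-loop of replication-dependent histone mRNAs, was at 207 and 212 CPM in sh-Scb and at 189.5 and 189.7 CPM in sh-SOX4. Its log2 fold change of -0.14 (SE 0.043, adjusted p 0.0204) was the smallest in size among the called genes, and leaving out sh-SOX4 replicate 1 gave an adjusted p of 0.110, while leaving out replicate 2 of that group gave 0.0978.

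Per length of exons, the clamp was the most abundant of the 48 and the D-type cyclin CCND2 the least. PCNA had 229.7 CPM per kb of exons in sh-Scb and 224 in sh-SOX4, and its libraries overlapped between the groups. It was followed by SLBP with 103 and 93.6 and by MCM3 with 84.0 and 106 CPM per kb, which changed places. On this scale CDK6 went from place 7 to place 4, with 48.2 CPM per kb in sh-Scb and 75.7 in sh-SOX4, and passed FEN1, MCM4 and MCM6. E2F7 went from place 30 to place 42 and CCNE2 from place 38 to place 47, next to CCNE1, from which it then hardly differed (7.49 against 7.85 CPM per kb in sh-SOX4, with libraries at 7.43 to 7.54 and 7.68 to 8.01). GINS3 had the lowest level of the GINS subunits on this scale in both groups, at 5.61 and 10.2 CPM per kb. The length counts all annotated exons of a gene, so a gene with many annotated exonic bases, such as POLE with 16609, is set low.

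**Figure D5:**
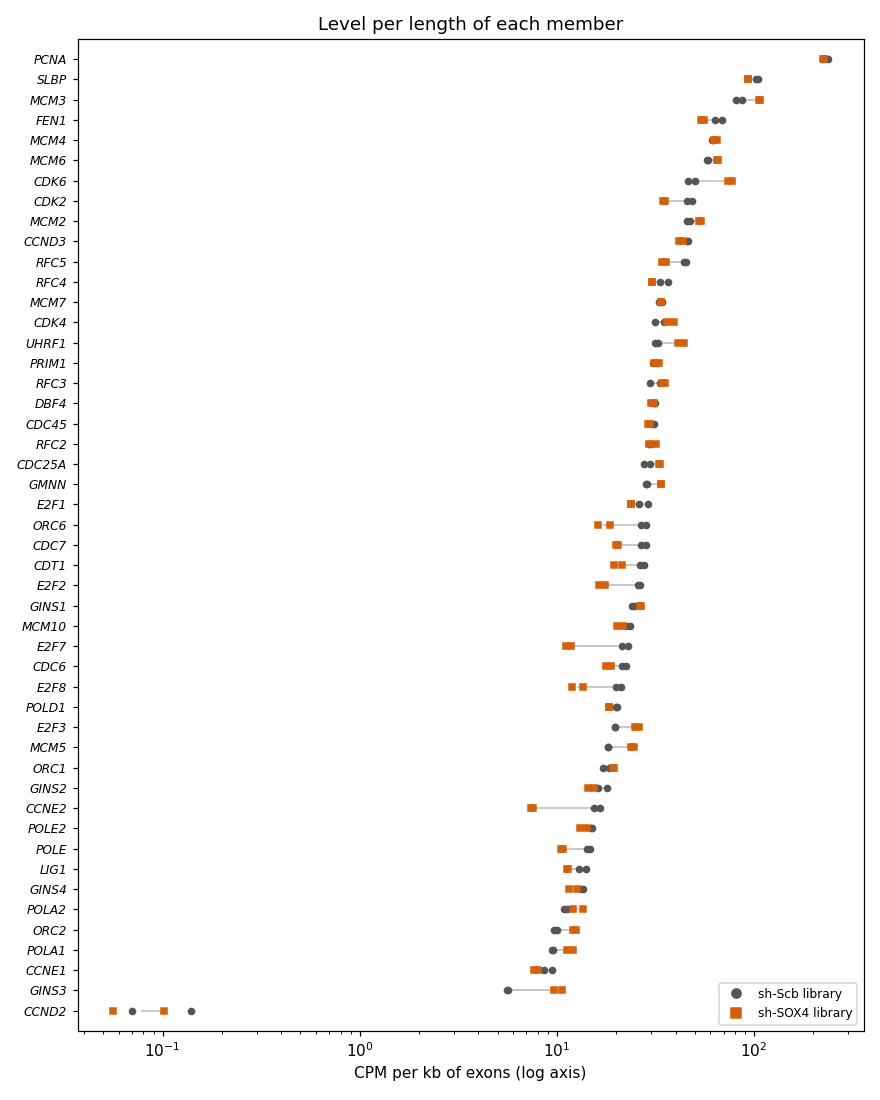
CPM per kb of exons (log axis) of each of the 48 genes in each library, ordered by the sh-Scb mean, with sh-Scb as circles, sh-SOX4 as squares and a line between the group means. PCNA is highest at 229.7 in sh-Scb, GINS3 is next to lowest at 5.61, and CCND2 stands alone at 0.105.

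For the genes called higher, called lower and not called, median levels in sh-Scb were 111, 120 and 88.7 CPM, and the median GC content of the longest transcript was 48.4%, 49.1% and 48.2%. Median exonic lengths were 5125, 4017 and 3666 bases, with wide overlap, from 2476 to 12260, 2026 to 16609 and 1471 to 7157 bases. Of the 48 genes, 27 share no exonic bases with another gene and 10 share at least 10%.

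The other genes of replication and G1/S, a list of 55 genes of which 54 were tested, held 14 called higher and 18 called lower, with a median log2 fold change of -0.07. The share called was 59.3%, against 44.1% of all tested IDs and 62.7% of those with at least 10 CPM. TFDP1, the DNA-binding partner of E2Fs, was higher, from 170.5 ± 4.25 to 297 ± 0.752 CPM (SD, n = 2), and so were ORC5, with a log2 fold change of 0.86 (SE 0.085), and POLE3, with 0.69 (SE 0.047). CDC25C, the mitotic phosphatase, was lower from 45.7 ± 4.53 to 21.9 ± 1.79 CPM (SD, n = 2), TICRR, which helps to load CDC45, had a log2 fold change of -0.88 (SE 0.055), and CHTF18, a subunit of an alternative clamp loader, of -0.82 (SE 0.062). POLE4 was higher too, at a low level of 3.94 ± 0.110 CPM in sh-Scb. As with the 48 genes, subunits of the same complex differed, since POLE3 was higher where POLE was lower.

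Of 11 genes of nucleotide supply for S phase, 3 were higher and 3 lower. The share called was 54.5%, against 44.1% of all tested IDs and 62.7% of those with at least 10 CPM. TK1, the S phase thymidine kinase, was at 28.7 and 28.4 CPM in sh-Scb and at 11.4 and 11.7 CPM in sh-SOX4, 40.3% of control (adjusted p 4.13e-06). DCK, the deoxycytidine kinase, had a log2 fold change of -0.49 (SE 0.050), and RRM2B of -0.21. CTPS1, the CTP synthase, was 1.77-fold higher, and SAMHD1 rose at a low level from 1.12 ± 0.320 to 3.20 ± 1.22 CPM (SD, n = 2). RRM1, RRM2 and TYMS, whose mRNAs rise in S phase, had log2 fold changes of 0.05, -0.01 and -0.01 and were not called.

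Of 10 CDK inhibitor and pocket protein genes, 8 were tested, 6 of them lower and 2 higher, and the other two, CDKN2A and CDKN2B, had 0 counts in each library. Of all tested IDs 20.9% were called lower and 44.1% in either direction, and of those with at least 10 CPM 62.7% in either direction. CDKN1C was at 3.65 ± 0.144 CPM in sh-Scb and 1.46 ± 0.0265 CPM in sh-SOX4 (SD, n = 2), CDKN2D had a log2 fold change of -0.84 (SE 0.073), and CDKN1A of -0.52 (SE 0.094). Of the pocket protein genes, RBL1 and RB1 were higher, with 0.40 (SE 0.067) and 0.27, and RBL2 was lower, with -0.48 (SE 0.047). Of 25 mitosis genes, 15 were lower and 6 higher, a share called of 84%, against 44.1% of all tested IDs and 62.7% of those with at least 10 CPM. NUSAP1, a spindle protein, had a log2 fold change of -0.74 (SE 0.043), but shares 62.2% of its exonic bases with AC087721.2. MKI67, the proliferation antigen, fell from 1155 ± 13.1 to 805 ± 9.46 CPM (SD, n = 2) and ANLN had a log2 fold change of -0.48 (SE 0.046), while CDC20, CCNB1 and AURKA had 0.64, 0.59 and 0.46. Each gene given here as higher or lower, or with a log2 fold change and SE, had an adjusted p under 0.05.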

How the data were processed

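The deposited values are raw counts for each Ensembl gene ID, not normalized, with a column for each library. Per the submitters' processing notes, HISAT2 2.2.0 and StringTie were used with hg38; what each did, the annotation, strand and filters were not given in the sources used here. Control columns are named NC and were taken as sh-Scb, the only group without SOX4. Symbols came from a gene name table, coordinates and exons from GENCODE 29 on GRCh38.

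Counts were filtered (filterByExpr of edgeR 4.0.16, minimum count 10, total 15), TMM-scaled, and tested between the groups with edgeR's quasi-likelihood test (robust) in R 4.3.3, with Benjamini-Hochberg adjustment over 19897 IDs at 0.05. The SE is the log2 fold change divided by the square root of F. The common biological coefficient of variation was 0.101. The median chi-square per gene between libraries of a group was 1.71 (sh-Scb) and 1.60 (sh-SOX4), where sampling noise would give 0.455, and all 4 libraries counted separately. Floors cover counting error only. The pipeline was tested on simulated data.

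Members and lists were chosen with earlier results of these data known. All 48 are named. From other lists, called genes of largest change are named, at most 3 a direction. Exceptions chosen after their values were seen were POLE3, RRM1, RRM2, TYMS, CCND1 and RBL2. Some genes of these lists are not reported here. Alternatives were size factors, library totals, filters, leaving out each library, a replicate block, thinning to 29093287 counts, DESeq2 1.42.0, limma 3.58.1 (voom), a 1.2-fold threshold, IDs with a symbol, overlapping genes left out, and a correction for GC content and length.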

Additional observations from a re-analysis of the deposited data

How the results depend on the processing

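Of the 30 called replication genes, 14 kept call and direction in all 16 alternatives, and no called gene reversed. The count of 14 higher became 9 with library totals and 5 with the test against 1.2-fold, and that of 16 lower became 26 and 9. Leaving out each library in turn gave 10 to 14 higher and 15 to 17 lower. The share of all tested IDs called, 44.1%, became 22.3% with no filter, 66.2% with at least 10 CPM in 2 libraries and 26.9% against 1.2-fold, and ran from 35% to 39.7% with a library left out. At 10 CPM in 2 libraries 11 genes were higher and 23 lower of 47 tested, and with the correction for GC content and length 11 and 24 of 48. With DESeq2, limma-voom and median-ratio size factors 30 of the 30 calls were kept. The labels give the groups the same replicate numbers but no shared batch or culture for a number, so the numbers were not used as pairs. Same-numbered deviations had a correlation of -0.0103. With the replicate block 13 genes were higher and 16 lower, CDK4 being the one lost (adjusted p 0.0709), and 42.1% of all IDs were called. Where calls changed, the cause was not tested. Leaving out 1 library leaves an arm with a lone sample, assumed to vary like the other group.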
